A study of Danio rerio with 4 samples.

Results

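Zebrafish embryos carrying the hemizygous transgene Tg(hsp:en-pou5f3) were compared here with wild-type embryos of the same cross after heat shock at 90% epiboly. At this stage, late in gastrulation, the spreading blastoderm has nearly covered the yolk. The transgene joins the repressor domain of Drosophila Engrailed to Pou5f3 under the hsp70l heat shock promoter, and it is therefore not limited to one tissue. Embryos of the RW strain were raised at 25°C, and both genotypes received the same heat shock at 37°C for 60 min followed by 30 min of further development. RNA was taken after these steps, and the stage names used below give the stage at which the heat shock began. The comparison took 2 of the 4 arrays of the series, 1 per genotype, each hybridised with RNA pooled from several whole embryos of that genotype (250 ng), and the supplementary methods describe a single clutch handled on one day. The same methods speak of more arrays than the 4 that the labels list, and each value was taken as that of a single array, as labelled. The other 2 arrays compared the same genotypes at the 3-somite stage (3-ss) and are set beside the 90% epiboly values below without a test, since 1 array per condition gives no measure of the variation between embryos.

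Every probe set of the array was considered, and the lists below cover many gene families. These lists were chosen with earlier results of these data known. Of 15502 probe sets left after removal of the manufacturer's controls, 11594 had a signal over the floor in at least one genotype at 90% epiboly and are called measured here. The floor of 32.4 is the level under which 95% of the signals of control probe sets without a zebrafish target lay, and lower signals were set to it. All values below are signals on a linear scale or the log2 ratio of the en-pou5f3 over the wild-type signal. A probe set was counted as lower or higher when the signals differed by at least 2-fold. A fold with one signal under the floor is a lower limit and is written as at least N-fold. Each gene was represented by its probe set with the highest mean signal, which gave 7273 genes. Levels of different probe sets are not ranked against each other, since they do not share a scale. Bright and dim refer to how far a signal lay over the floor, and the summed signals of a list compare the genotypes only. In whole embryos, fewer cells of a type and less RNA per cell cannot be told apart.

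Pou5f3 is the zebrafish relative of mammalian Oct4, a POU homeodomain protein that binds DNA, often together with SoxB1 proteins, and helps to start transcription of the zygotic genome. Later it acts in gastrulation movements, in dorsoventral patterning and in the forming midbrain and hindbrain. A fusion with the Engrailed repressor domain turns a DNA-binding protein into a repressor of the genes it binds, and it can also displace the endogenous protein. The pou5f3 probe set gave 8284 in en-pou5f3 against 5473 in wild-type embryos, a log2 ratio of 0.60. Which part of the transcript its probes cover is not given in the files, so the signal may hold transgene RNA, endogenous RNA or both. The genotype labels were followed, although supplementary tables of the study head the same columns as heat shock minus and plus.

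Over the floor lay 11063 probe sets on the en-pou5f3 array and 11055 on the wild-type array. The mean signal, with 2% trimmed from each end, was 500.14 on the en-pou5f3 array and 500.13 on the wild-type array. The authors scaled each array to a common mean, so this equality was set beforehand and does not show how well the arrays match. The median log2 ratio over all measured probe sets was 0.03. In all, 261 probe sets were at least 2-fold lower (2.25% of those measured) and 151 were at least 2-fold higher (1.3%). By gene these were 164 of 7273 lower (2.25%) and 80 higher (1.1%), and 88.5% of genes lay within 1.5-fold. If no floor was set, 1346 were lower and 1207 higher. Probe sets counted as lower had a median signal of 87.6 in en-pou5f3 and 339 in wild-type embryos, while those counted as higher had 162 in en-pou5f3 and 63.4 in wild-type embryos. The share of lower calls was alike over the range of brightness, between 1.94% and 2.76% in 5 equal bins of mean signal. The share of higher calls lay between 0.345% in the brightest bin and 2.37% in the second dimmest.

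**Figure D1:**
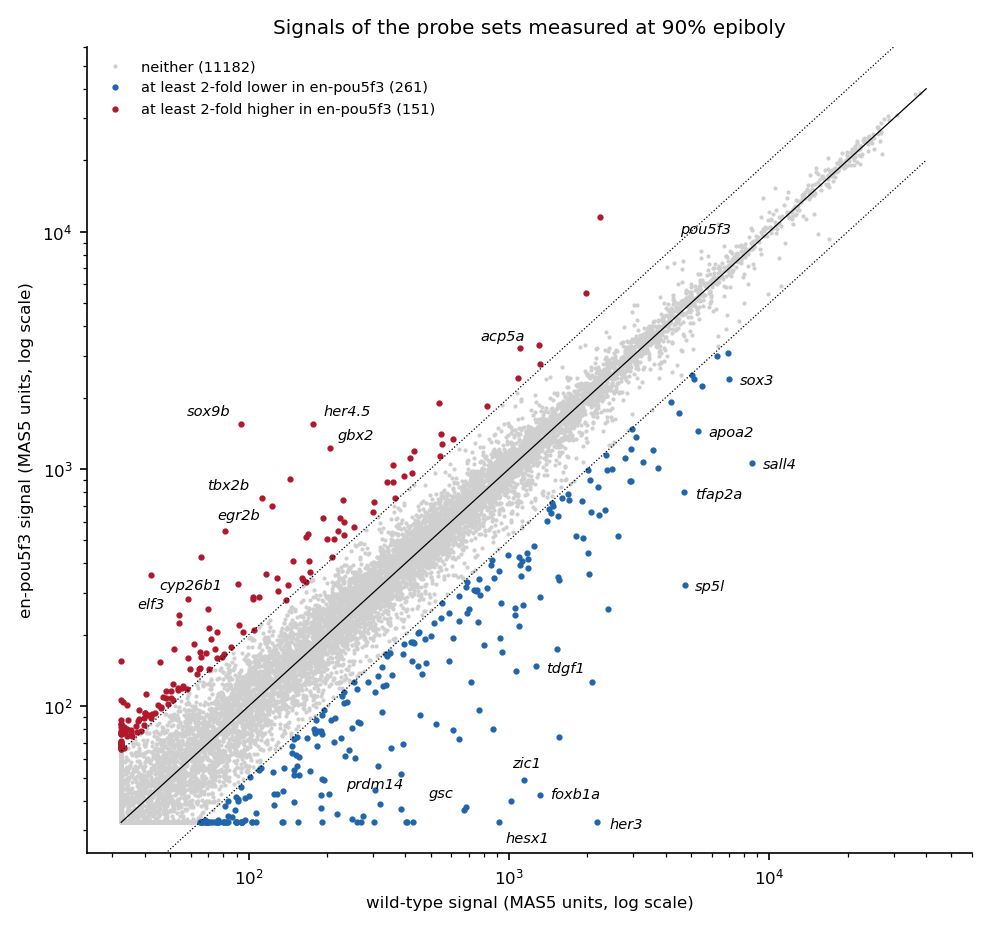
Signal of each probe set in en-pou5f3 embryos (vertical axis, log scale) against that in wild-type embryos (horizontal axis, log scale) at 90% epiboly, with the 261 lower probe sets in blue, the 151 higher ones in red and the rest in grey. Blue points reach far to the right of the diagonal also at high wild-type signals, while most red points lie at wild-type signals near or below 100.

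Changes were most frequent in genes that regulate other genes. Among 339 measured members of transcription factor families, 56 were lower (16.5%) and 19 higher (5.6%), and 57.5% lay within 1.5-fold. Genes of signalling pathways followed with 26 of 235 lower (11.1%) and 8 higher (3.4%). Adhesion, matrix and protease genes had 8 of 169 lower (4.73%) and 7 higher (4.14%). Membrane transport and receptor genes had 6 of 186 lower and 1 higher, and the cytoskeleton had 1 of 103 lower and 4 higher. The machinery that every cell uses stayed close to level. Of 682 genes of transcript processing, translation, folding and protein breakdown, 2 were lower and 1 higher, and 98.4% lay within 1.5-fold. None of 134 genes of energy metabolism passed 2-fold, and 2 of 279 genes of cell division and chromatin were lower and 2 higher. Among all genes 2.25% were lower and 1.1% higher, and 88.5% lay within 1.5-fold. The classes were not matched for brightness. In the brightest of 5 equal bins of mean signal 1.94% of probe sets were lower and 0.345% higher, so few higher calls in a bright class say little. The transcription factor families thus held 56 of the 164 genes that were lower and 19 of the 80 that were higher, and 20 of the 40 genes that were at least 4-fold lower. The classes were put together with values known, and a gene may stand in several of the lists below, so these counts describe the arrays and carry no test. At 3-ss the corresponding shares were 14.5% lower and 1.71% higher for transcription factors, beside 1.85% and 1.58% over all genes (1.94% and 1.8% of probe sets), and 4.38% lower and 3.59% higher for signalling genes.

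**Figure D2:**
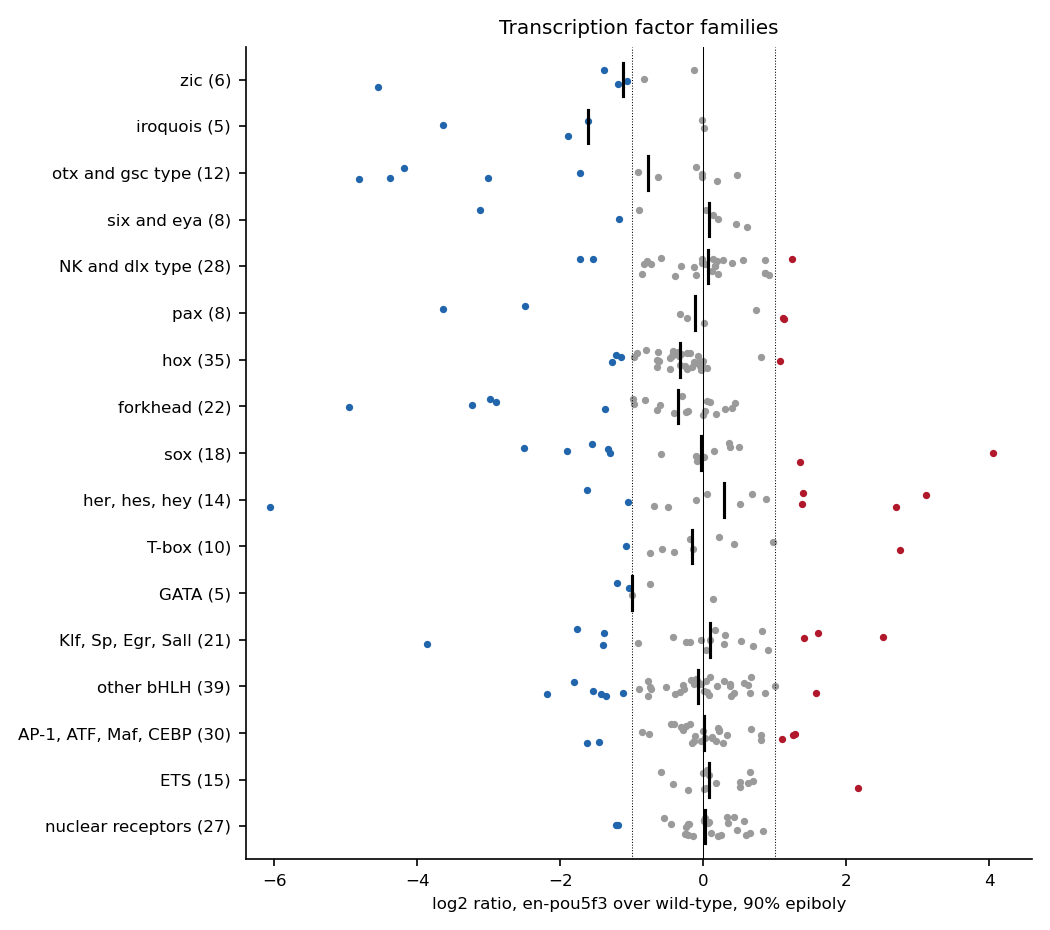
Log2 ratio of the en-pou5f3 over the wild-type signal at 90% epiboly (horizontal axis) for each measured gene of the transcription factor families (rows, with the number of measured genes in brackets). Each dot is 1 gene, blue where at least 2-fold lower, red where at least 2-fold higher and grey otherwise, the black bar is the median of the row, and the dotted lines mark 2-fold in either direction.

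Zinc finger proteins of the Zic family pattern the dorsal neural plate and its border. All 6 measured zic genes had negative log2 ratios, with a median of -1.13, and 4 were lower. The largest decrease was that of zic1, with 48.9 in en-pou5f3 against 1144 in wild-type embryos (23.4-fold lower). The bright zic2a gave 1716 in en-pou5f3 against 4501 in wild-type embryos (2.62-fold lower) and zic2b gave 2993 in en-pou5f3 against 6268 in wild-type embryos (2.09-fold lower). The dimmer zic5 gave 78.8 in en-pou5f3 against 179.5 in wild-type embryos (2.28-fold lower). At 3-ss the log2 ratio was -1.69 for zic1, -0.32 for zic2a and 0.24 for zic2b, so the bright pair was close to level there.

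Iroquois homeobox genes act in the prepattern of the neural plate and of the hindbrain border. Of 5 measured members 3 were lower, and the median was -1.61, or -0.94 over the 2 members left without shared probes. The signal of irx7 was 1008 in en-pou5f3 and 3739 in wild-type embryos (3.71-fold lower), and that of irx1b was 1066 in en-pou5f3 and 3261 in wild-type embryos (3.06-fold lower). The irx1a signal of 14.5 in en-pou5f3 embryos lay under the floor, against 404 in wild-type embryos, at least 12.5-fold lower. At 3-ss 3 of 5 were lower, and irx7 had a log2 ratio of -1.42 and irx1b of -1.68.

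Forkhead proteins bind DNA through a winged helix and serve in many early tissues. Of 22 measured forkhead genes 5 were lower and 0 higher (median log2 ratio -0.35). The largest decrease was that of foxb1a, a gene of the neural plate, with 42.4 in en-pou5f3 against 1312 in wild-type embryos (30.9-fold lower). It was followed by foxd5, a repressor of the early neural ectoderm, with 256 in en-pou5f3 against 2404 in wild-type embryos (9.38-fold lower). The foxd3 gene, which acts in pluripotent cells and in the neural crest, gave 96.8 in en-pou5f3 against 765 in wild-type embryos (7.91-fold lower). The close relative of foxb1a, foxb1b, gave 33.4 in en-pou5f3 against 249 in wild-type embryos (7.46-fold lower). The mesodermal foxc1a gave 736 in en-pou5f3 against 1905 in wild-type embryos (2.59-fold lower). Pioneer factors of the endoderm and notochord stood just short of the threshold. The foxa2 gene had 597 in en-pou5f3 against 1181 in wild-type embryos (log2 ratio -0.98), and foxa1 had 91.4 in en-pou5f3 against 179 in wild-type embryos (log2 ratio -0.97).

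The Otx and Goosecoid type of homeobox genes marks the head and the organizer. Of 12 measured genes 5 were lower and 0 higher (median log2 ratio -0.77, or -0.10 with no floor). The copies of otx2 differed. The otx2a signal was 6.96 in en-pou5f3 and 261 in wild-type embryos, at least 8.05-fold lower, while the otx2b signal was 1991 in en-pou5f3 against 1737 in wild-type embryos (log2 ratio 0.20). The related otx1 gave 74.5 in en-pou5f3 against 1559 in wild-type embryos (20.9-fold lower), and the organizer gene gsc gave 37.7 in en-pou5f3 against 685 in wild-type embryos (18.2-fold lower).

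Among the homeobox genes of the sine oculis type, which act in the eye field and placodes, six7 was 8.73-fold lower with signals of 174 in en-pou5f3 and 1523 in wild-type embryos, and six3a was 2.26-fold lower with 103 in en-pou5f3 and 234 in wild-type embryos. The related six3b had 352 in en-pou5f3 against 654 in wild-type embryos (log2 ratio -0.89), and six4a and six4b had log2 ratios of 0.13 and 0.03. Distal-less and NK type homeobox genes had a median near 0, at 0.07, with 2 of 28 lower (7.14%) and 1 higher (3.57%). Here the dim forebrain gene emx2 gave 33.1 in en-pou5f3 against 96.6 in wild-type embryos (2.92-fold lower), and the dim neural gene barhl2 gave 14.8 in en-pou5f3 against 107 in wild-type embryos (at least 3.3-fold lower). The ectodermal gene dlx5a, a marker of the border of the neural plate, moved the other way, with 307 in en-pou5f3 against 129.9 in wild-type embryos (2.36-fold higher). The ventral repressors vox and ved, which act downstream of BMP, were bright and near level, at 4175 in en-pou5f3 against 4467 in wild-type embryos for vox and 4018 in en-pou5f3 against 3528 in wild-type embryos for ved.

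Hox genes give axial levels their identity. They leaned downward by little. Negative log2 ratios were seen in 32 of 35 measured hox genes, with a median of -0.32, but 3 alone were lower and 1 higher. The 3 lower genes all belong to the hoxc group. The hoxc8a gene gave 989 in en-pou5f3 against 2389.7 in wild-type embryos (2.42-fold lower). Its neighbour hoxc6a gave 63.4 in en-pou5f3 against 147 in wild-type embryos (2.32-fold lower), and hoxc6b gave 147 in en-pou5f3 against 326 in wild-type embryos (2.22-fold lower). In the same group the dim hoxc3a was 2.11-fold higher, at 89.6 in en-pou5f3 and 42.4 in wild-type embryos. Other bright hox genes lay closer to level. The hoxb9a gene had 854 in en-pou5f3 against 1146 in wild-type embryos (log2 ratio -0.42), and hoxb1a had 781 in en-pou5f3 against 799 in wild-type embryos (log2 ratio -0.03). The caudal gene cdx4, which acts upstream of hox genes in the tail, was very bright at 5894 in en-pou5f3 and 11064 in wild-type embryos, with a log2 ratio of -0.91 that did not reach 2-fold, while cdx1a had 0.02.

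Paired box genes moved in both directions. Of 8 measured pax genes 2 were lower and 2 higher, and the median was -0.11. The midbrain and kidney regulator pax2a gave 127 in en-pou5f3 against 714 in wild-type embryos (5.63-fold lower), and the eye regulator pax6b was at least 12.5-fold lower with 4.91 in en-pou5f3 and 404 in wild-type embryos. The higher ones were dim in both genotypes. The kidney and ear gene pax8 gave 74.7 in en-pou5f3 against 34.1 in wild-type embryos, and pax9, a gene of the pharynx and sclerotome, gave 70.6 in en-pou5f3 against 26.2 in wild-type embryos, the wild-type signal under the floor.

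Sox proteins of the B1 group, sox2 and sox3 among them, are partners of Pou5f3 on DNA and keep neural progenitors undifferentiated. Of 18 measured sox genes 5 were lower and 2 higher (median log2 ratio -0.03). The brightest sox2 probe set gave 359.5 in en-pou5f3 against 2037 in wild-type embryos (5.66-fold lower), and sox3 gave 2394 in en-pou5f3 against 7013 in wild-type embryos (2.93-fold lower). The related SoxB1 gene sox19a was level at 4543 in en-pou5f3 against 4679 in wild-type embryos, while sox1a was 2.55-fold higher with 507 in en-pou5f3 and 199 in wild-type embryos. A second, dim probe set of sox1a had 40 in en-pou5f3 against 57 in wild-type embryos (log2 ratio -0.51). Of the SoxC genes, which act in young neurons, sox11a gave 1113 in en-pou5f3 against 2803 in wild-type embryos (2.52-fold lower) and sox11b gave 512 in en-pou5f3 against 1919 in wild-type embryos (3.75-fold lower). The largest log2 ratio among genes measured in both genotypes was in this family, in the neural crest and cartilage gene sox9b with 1547 in en-pou5f3 against 93.2 in wild-type embryos (16.6-fold higher). Its copy sox9a was dim, with 2.81 in en-pou5f3 embryos under the floor and 48.6 in wild-type embryos.

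GATA factors drive blood, heart and gut programmes as well as non-neural ectoderm. Of 5 measured genes 2 were lower, and the median of -1.0 was among the lowest of the families. Bright gata2a gave 739 in en-pou5f3 against 1704 in wild-type embryos (2.31-fold lower), and gata6 gave 271 in en-pou5f3 against 555 in wild-type embryos (2.04-fold lower). The signal of gata3 was 892 in en-pou5f3 and 1779 in wild-type embryos, just short of 2-fold, and gata5, at 806 in en-pou5f3 and 1356 in wild-type embryos, had a log2 ratio of -0.75. The AP-2 protein tfap2a, a leading regulator of epidermis and neural crest, gave 797 in en-pou5f3 against 4721 in wild-type embryos (5.93-fold lower). The related tfap2c had 375 in en-pou5f3 against 741 in wild-type embryos (log2 ratio -0.98), and tp63, the master gene of basal epidermis, had 896 in en-pou5f3 against 1507 in wild-type embryos (log2 ratio -0.75).

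Krüppel-like and Sp factors, which share a zinc finger that binds GC-rich DNA, went both ways, with 4 of 21 genes of the wider family lower and 3 higher. The Wnt target sp5l gave 324 in en-pou5f3 against 4735 in wild-type embryos (14.6-fold lower), and sp8b, a gene of the anterior neural ridge, gave 272 in en-pou5f3 against 929 in wild-type embryos (3.41-fold lower). Of the Krüppel-like genes, klf17, expressed in the hatching gland and blood, gave 473 in en-pou5f3 against 1253 in wild-type embryos (2.65-fold lower), and klf2a gave 314 in en-pou5f3 against 824 in wild-type embryos (2.62-fold lower). In the other direction, klf9 gave 214 in en-pou5f3 against 70.6 in wild-type embryos (3.03-fold higher) and klf11a gave 1112 in en-pou5f3 against 418 in wild-type embryos (2.66-fold higher). The rhombomere gene egr2b gave 700.0 in en-pou5f3 against 122.7 in wild-type embryos (5.7-fold higher). A bright probe set that the study tables name sall4, a zinc finger gene of pluripotent cells, fell to 1061 in en-pou5f3 embryos against 8586 in wild-type embryos, 8.09-fold lower. A probe set annotated as sall4 was dim and level, with 97.6 in en-pou5f3 against 99.3 in wild-type embryos. The naming of the bright one rests on the study tables alone.

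Basic helix-loop-helix genes outside the her group were mostly lower where they moved. Among 39 measured genes of the Id, Myc, Twist and muscle groups 6 were lower and 1 higher (median log2 ratio -0.07). Myc proteins promote growth and proliferation. The myclb gene gave 341 in en-pou5f3 against 1556 in wild-type embryos (4.56-fold lower) and mych gave 638 in en-pou5f3 against 2225 in wild-type embryos (3.49-fold lower). The mycn gene gave 1925 in en-pou5f3 against 4174 in wild-type embryos (2.17-fold lower), while myca, at 72.2 in en-pou5f3 against 88.3 in wild-type embryos, was near level. Of the myogenic factors myod1 gave 51.4 in en-pou5f3 against 149 in wild-type embryos (2.9-fold lower), and myf5 gave 427 in en-pou5f3 against 1092 in wild-type embryos (2.56-fold lower). The mesenchyme gene twist1a gave 68.2 in en-pou5f3 against 184 in wild-type embryos (2.69-fold lower). The higher one was id2b, an Id protein that binds bHLH proteins and keeps them off DNA, with 184 in en-pou5f3 against 61.6 in wild-type embryos (2.99-fold higher). The her and hey group was divided, with 3 of 14 lower (her3, her5 and her7) and 4 higher (her2, hey1, her4.2 and her4.5). The her3 gene, a repressor of neuronal differentiation, had 1.29 in en-pou5f3 embryos, far under the floor, and 2171 in wild-type embryos (at least 66.9-fold lower). The her5 gene, which keeps cells of the midbrain-hindbrain boundary undifferentiated, gave 382 in en-pou5f3 against 1183 in wild-type embryos (3.1-fold lower), and the segmentation clock gene her7 gave 333 in en-pou5f3 against 688 in wild-type embryos (2.07-fold lower). Of the higher genes, her2 gave 883 in en-pou5f3 against 339 in wild-type embryos (2.6-fold higher), and hey1 gave 288 in en-pou5f3 against 109 in wild-type embryos (2.63-fold higher). A probe set of her4.5 gave 1542 in en-pou5f3 against 177 in wild-type embryos (8.69-fold higher), and one of her4.2 gave 424 in en-pou5f3 against 65.5 in wild-type embryos (6.47-fold higher). The her4 copies are nearly identical in sequence, and their probe sets cannot be assigned to one copy. The her4.2 and her4.5 entries in the count of 4 higher genes may therefore not be separate.

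Leucine zipper factors had a median near 0, at 0.01 over 30 genes, but 2 were lower (6.67%) and 3 higher (10%). Among all genes 2.25% were lower and 1.1% higher. A pair of Maf genes of the hindbrain differed, and both were dim. The mafbb gene gave 55.8 in en-pou5f3 against 153 in wild-type embryos (2.74-fold lower), and a probe set named mafba in the study tables gave 101 in en-pou5f3 against 34.3 in wild-type embryos (2.95-fold higher). The antioxidant regulator nfe2l2a gave 44.1 in en-pou5f3 against 136 in wild-type embryos (3.08-fold lower). Higher were 3 genes of the immediate early and stress type. The atf5a gene gave 219.9 in en-pou5f3 against 92 in wild-type embryos (2.39-fold higher), junba gave 125 in en-pou5f3 against 51.4 in wild-type embryos (2.42-fold higher) and fosl2 gave 99.2 in en-pou5f3 against 46.2 in wild-type embryos (2.15-fold higher). A probe set that the study tables name maf was 10.5-fold lower with 36.8 in en-pou5f3 and 385 in wild-type embryos. Of 27 nuclear receptors 2 were lower, the retinoic acid receptor raraa at 603 in en-pou5f3 against 1399.8 in wild-type embryos (2.32-fold lower) and the corepressor nr0b2a at 435 in en-pou5f3 against 996 in wild-type embryos (2.29-fold lower). The bright orphan receptor nr2f6b had 3598 in en-pou5f3 against 2427 in wild-type embryos (log2 ratio 0.57). Of 15 ETS genes 1 was higher, the epithelial factor elf3 at 243 in en-pou5f3 against 54.3 in wild-type embryos (4.47-fold higher). The FGF targets etv5a and etv5b had log2 ratios of 0.66 and 0.62. The prdm14 gene, a zinc finger regulator of germ cells and of pluripotency in the mouse, gave 38.8 in en-pou5f3 against 319 in wild-type embryos (8.22-fold lower). At 3-ss its signals were near the floor, at 56.4 in en-pou5f3 and 39.6 in wild-type embryos, so a decrease of 2-fold could not be seen there. The repressor zeb1b gave 292 in en-pou5f3 against 642 in wild-type embryos (2.2-fold lower).

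T-box genes are central to mesoderm. Of 10 measured genes 1 was lower and 1 higher. The notochord and tail gene tbxta gave 700.1 in en-pou5f3 against 1476 in wild-type embryos (2.11-fold lower). By contrast tbx6 gave 1861 in en-pou5f3 against 943 in wild-type embryos (log2 ratio 0.98). Of the probe sets of tbx16, one gave 4045 in en-pou5f3 against 3012 in wild-type embryos (log2 ratio 0.43) and the other 3248 in en-pou5f3 against 1102 in wild-type embryos (2.95-fold higher). The tbx2b gene gave 755 in en-pou5f3 against 112 in wild-type embryos (6.73-fold higher). Neither called gene was past 2-fold at 3-ss, with log2 ratios of -0.22 for tbxta and -0.28 for tbx2b.

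Ligands, receptors and inhibitors of signalling were examined pathway by pathway. In the Nodal pathway, which induces mesoderm and endoderm, 3 of 18 measured genes were lower and 0 higher (median log2 ratio -0.16). The co-receptor tdgf1 gave 147 in en-pou5f3 against 1272 in wild-type embryos (8.63-fold lower). The feedback inhibitor lft1 gave 256 in en-pou5f3 against 705 in wild-type embryos (2.75-fold lower), and lft2 gave 51.7 in en-pou5f3 against 386 in wild-type embryos (7.46-fold lower). The receptor acvr2ba was level at 1269 in en-pou5f3 against 1295 in wild-type embryos. The Smad partner foxh1 had 742 in en-pou5f3 against 543 in wild-type embryos (log2 ratio 0.45). At 3-ss lft1 had a log2 ratio of -0.12, and lft2 was dim, with 25.2 in en-pou5f3 embryos under the floor and 37.8 in wild-type embryos, while tdgf1 was still lower, at -1.37.

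BMP signals set ventral fates and are blocked dorsally by Chordin. Of 14 measured ligands and receptors 3 were lower and 1 higher, and the median was 0.02. Both bmp2 copies fell. The main ventral ligand bmp2b gave 268 in en-pou5f3 against 1131 in wild-type embryos (4.22-fold lower), and bmp2a was at least 3.17-fold lower with 27 in en-pou5f3 and 103 in wild-type embryos. The receptor gene bmpr1ba gave 80.6 in en-pou5f3 against 179 in wild-type embryos (2.22-fold lower). The ligand gdf6a, expressed in dorsal ectoderm and retina, was higher, at 359.8 in en-pou5f3 against 117 in wild-type embryos. On the antagonist side chrd gave 156 in en-pou5f3 against 588 in wild-type embryos (3.77-fold lower), so that a ligand and its antagonist were both lower. Of the target genes id2b, given above, was higher. The signal of id1 was 5359.9 in en-pou5f3 and 6685 in wild-type embryos and within 2-fold, and msx1b had 902 in en-pou5f3 against 1641 in wild-type embryos (log2 ratio -0.86). Of the others, msx1a had 1211 in en-pou5f3 against 641 in wild-type embryos (log2 ratio 0.92) and id3 had 1538 in en-pou5f3 against 998 in wild-type embryos (log2 ratio 0.62).

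Wnt signalling posteriorises the neural plate and maintains the tail. Of 10 receptors and co-receptors 3 were lower, all receptors. The Frizzled gene fzd8b gave 73 in en-pou5f3 against 642 in wild-type embryos (8.79-fold lower), fzd9b gave 55.8 in en-pou5f3 against 315 in wild-type embryos (5.65-fold lower) and the non-canonical receptor ror2 gave 306 in en-pou5f3 against 749 in wild-type embryos (2.44-fold lower). Among 26 antagonists and intracellular mediators 3 were lower and 0 higher (median log2 ratio 0.04). Besides sp5l these were secreted inhibitors, dkk1b with 247 in en-pou5f3 against 691 in wild-type embryos (2.8-fold lower) and sfrp1a with 999 in en-pou5f3 against 2492 in wild-type embryos (2.49-fold lower). The beta-catenin genes were level, at 13659 in en-pou5f3 against 12618 in wild-type embryos for ctnnb1 and 6065 in en-pou5f3 against 5482 in wild-type embryos for ctnnb2. The non-canonical components prickle1a and prickle1b, which act in planar polarity, had log2 ratios of -0.69 and -0.74.

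In the FGF pathway the ligand fgf8a, an organizer signal of the midbrain-hindbrain boundary and the tail bud, gave 219 in en-pou5f3 against 1092 in wild-type embryos (4.99-fold lower). The dim fgf3 gave 19.6 in en-pou5f3 against 68.7 in wild-type embryos (at least 2.12-fold lower). Feedback genes of the pathway did not follow as a group. Of 13 measured 1 was higher, the phosphatase dusp2, with 283 in en-pou5f3 against 104 in wild-type embryos (2.73-fold higher), and none was lower, with a median of 0.17. The inhibitor spry4 had 367 in en-pou5f3 against 724 in wild-type embryos (log2 ratio -0.98) and dusp6 had 1744 in en-pou5f3 against 2262 in wild-type embryos (log2 ratio -0.38). The target etv5b had 4580.3 in en-pou5f3 against 2973 in wild-type embryos (log2 ratio 0.62). At 3-ss fgf8a was again lower, with a log2 ratio of -2.29.

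Retinoic acid genes moved in both directions, and the enzymes that degrade the acid did so too. Of 16 measured genes 4 were lower and 2 higher (median log2 ratio -0.23). Among the degrading enzymes cyp26a1, the main one of the gastrula, gave 2487 in en-pou5f3 against 5027 in wild-type embryos (2.02-fold lower). Another, cyp26b1, gave 329 in en-pou5f3 against 91.5 in wild-type embryos (3.6-fold higher). A further probe set of cyp26b1 gave 283 in en-pou5f3 against 58.8 in wild-type embryos (4.81-fold higher). A dim one gave 49.6 in en-pou5f3 against 7.03, under the floor, in wild-type embryos and was not called. The dehydrogenase gene aldh8a1 gave 53.5 in en-pou5f3 against 172 in wild-type embryos (3.21-fold lower), and dhrs3a, which reduces retinal to retinol, gave 224 in en-pou5f3 against 517 in wild-type embryos (2.31-fold lower). The binding protein crabp2a gave 2781 in en-pou5f3 against 1311 in wild-type embryos (2.12-fold higher). Hedgehog genes were level as a group, with a median of -0.09 over 14, and the ligand shhb was the one that passed 2-fold, with 73.5 in en-pou5f3 against 227 in wild-type embryos (3.09-fold lower). Its copy shha had 259 in en-pou5f3 against 393 in wild-type embryos (log2 ratio -0.60). The mediator sufu was level at 938 in en-pou5f3 against 942 in wild-type embryos.

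Among chemokines and growth factors, cxcr4a, a receptor that guides migrating endoderm, gave 351 in en-pou5f3 against 1542 in wild-type embryos (4.39-fold lower). Its ligands cxcl12a and cxcl12b had log2 ratios of -0.37 and -0.48. The scavenger receptor ackr3b, which clears the same ligands, gave 295 in en-pou5f3 against 774 in wild-type embryos (2.63-fold lower). The chemokine cxcl14 gave 529.9 in en-pou5f3 against 169 in wild-type embryos (3.13-fold higher), and the interferon regulatory factor irf1b gave 225 in en-pou5f3 against 54.1 in wild-type embryos (4.15-fold higher). Growth factor genes moved both ways. The ligand igf2a gave 122 in en-pou5f3 against 327 in wild-type embryos (2.68-fold lower), and pdgfaa gave 728 in en-pou5f3 against 304 in wild-type embryos (2.4-fold higher). The Eph receptor epha2a gave 155 in en-pou5f3 against 423 in wild-type embryos (2.72-fold lower). Of 144 protein kinase and phosphatase genes of the MAPK and AKT type 1 was lower (0.69%) and 2 were higher (1.39%). Beside the 2.25% lower and 1.1% higher among all genes, these counts say little.

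**Figure D3:**
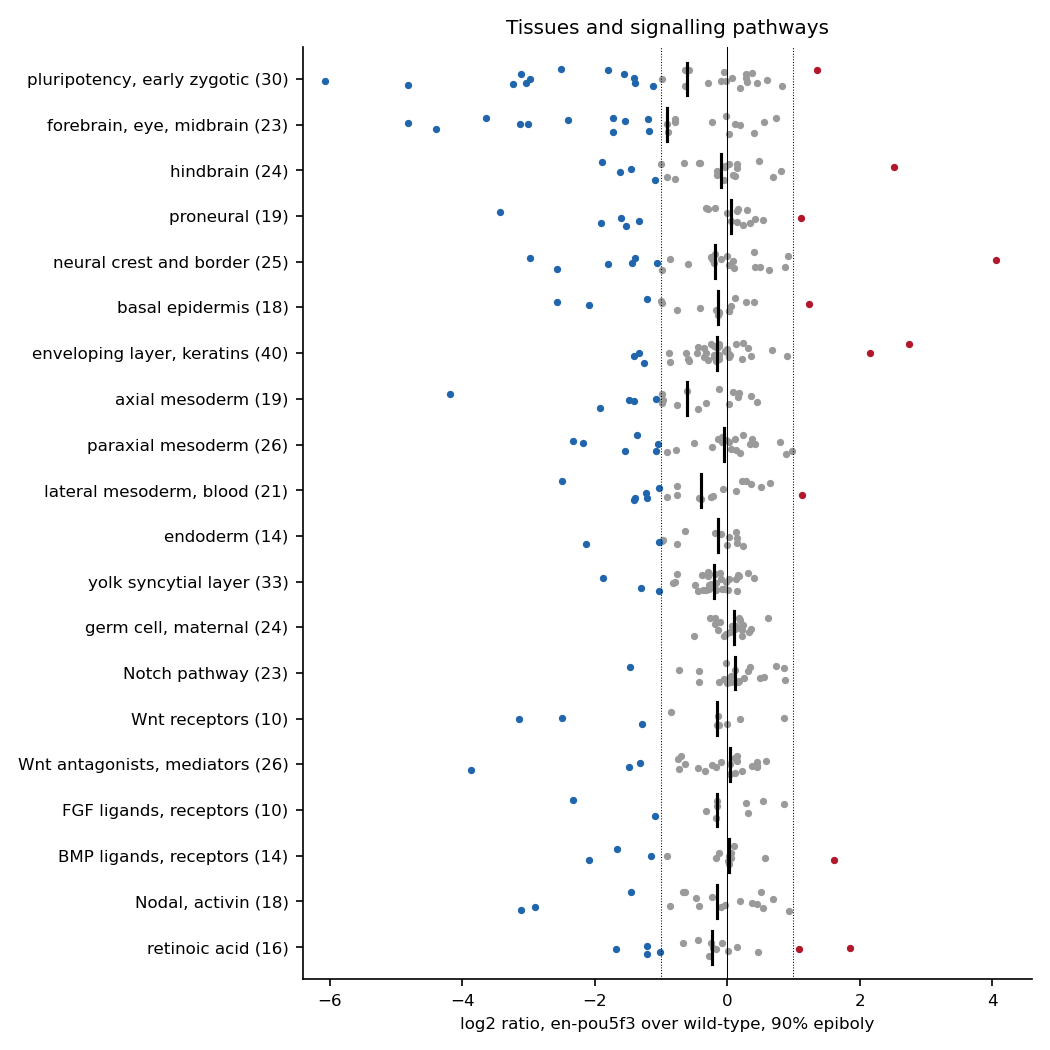
Log2 ratio of the en-pou5f3 over the wild-type signal at 90% epiboly (horizontal axis) for each measured gene of the tissue and signalling lists (rows, with the number of measured genes in brackets). Each dot is 1 gene, blue where at least 2-fold lower, red where at least 2-fold higher and grey otherwise, and the black bar is the median of the row. The germ cell and maternal genes lie close to 0, while the pluripotency and axial mesoderm rows reach far to the left.

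Genes of each germ layer held members that fell. In the axial mesoderm and prechordal plate 5 of 19 measured genes were lower and 0 higher (median log2 ratio -0.60), and their summed signals were 5935 in en-pou5f3 and 9717 in wild-type embryos. These were gsc, chrd, dkk1b, klf17 and tbxta. The notochord gene noto was level, at 1569 in en-pou5f3 against 1402 in wild-type embryos, and so was the organizer ligand admp, at 506 in en-pou5f3 against 552 in wild-type embryos.

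Paraxial and tail bud mesoderm had 6 of 26 lower, with a median of -0.05. The protocadherin pcdh8, which acts in cell movement of the presomitic mesoderm, gave 42.1 in en-pou5f3 against 189.6 in wild-type embryos (4.51-fold lower). The presomitic regulator msgn1 was very bright and level, at 12956 in en-pou5f3 against 11362 in wild-type embryos. Of the genes named above, tbx16 and tbx6 had positive log2 ratios, while the muscle genes myod1 and myf5 were lower.

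Lateral, blood and vessel mesoderm had 6 of 21 lower and 1 higher, with a median of -0.39. Apart from the GATA, Klf and pax genes named above, this list held drl, a zinc finger gene of lateral plate mesoderm, at 184 in en-pou5f3 against 431 in wild-type embryos (2.34-fold lower). Of 14 endoderm genes 2 were lower, gata6 and cxcr4a, with a median of -0.14. A probe set named mxtx1 in the study tables, a homeobox gene of the yolk syncytial layer, gave 17.6 in en-pou5f3 embryos, under the floor, and 427 in wild-type embryos, at least 13.2-fold lower. The apolipoproteins made by that layer fell in part. The apoa2 signal was 1447 in en-pou5f3 and 5330.4 in wild-type embryos (3.68-fold lower), and that of apobb.1 was 2242 in en-pou5f3 and 5514 in wild-type embryos (2.46-fold lower). Other bright genes of the layer were level, with 19143 in en-pou5f3 against 20571 in wild-type embryos for apoeb and 21788 in en-pou5f3 against 21410.0 in wild-type embryos for afp4. Of 33 measured genes 3 were lower, and the median was -0.19. The summed signal of this list was 138400 in en-pou5f3 and 151400 in wild-type embryos. At 3-ss apoa2 had a log2 ratio of -0.30 and apobb.1 of -0.10.

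The enveloping layer is the outer epithelium of the gastrula, and keratins are its main filaments. Of 40 genes of this list 3 were lower and 2 higher (median log2 ratio -0.15), and their summed signals were 196600 in en-pou5f3 and 221200 in wild-type embryos. The higher ones were elf3 and tbx2b, with log2 ratios of 2.16 and 2.75. The keratin krt91 gave 165 in en-pou5f3 against 393 in wild-type embryos (2.38-fold lower), and the secretory gene agr1 gave 54.8 in en-pou5f3 against 137 in wild-type embryos (2.51-fold lower). The keratin genes krt8 and krt4 had log2 ratios of -0.14 and -0.12, and krt97 had 9338 in en-pou5f3 against 16949 in wild-type embryos (log2 ratio -0.86). Among 18 genes of basal epidermis and ionocytes 3 were lower and 1 higher (median log2 ratio -0.13). Neural crest and neural plate border genes had 6 of 25 lower and 1 higher. The crest marker crestin was level, at 1296 in en-pou5f3 against 1219 in wild-type embryos, in contrast to foxd3, tfap2a and sox9b.

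Germ cell and maternal genes, many of whose transcripts are laid down in the egg, were level. None of 24 measured passed 2-fold, the median was 0.11 and the summed signal was 8985 in en-pou5f3 and 8241 in wild-type embryos. With 2.25% of all genes lower and 1.1% higher, a count of 0 among 24 genes says little by itself. The germ cell gene nanos3 gave 705 in en-pou5f3 against 797 in wild-type embryos, and dnd1 gave 160.2 in en-pou5f3 against 227 in wild-type embryos (log2 ratio -0.50). Genes of pluripotency and of the first zygotic transcription held many decreases. Of 30 measured 12 were lower and 1 higher (median log2 ratio -0.61). The extremes were her3 at -6.06, a bound, and sox1a at 1.35, which are counted in other lists too. At 3-ss 11 of 28 were lower, and the median was -0.60. Immune and complement genes had 1 of 39 lower and 1 higher (2.56% each), with a median of 0.13. Beside the 2.25% and 1.1% of all genes these counts say little.

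Brain lists were examined by region. Of 23 forebrain, eye field and midbrain regulators 11 were lower and 0 higher (median log2 ratio -0.91). The repressor hesx1, a gene of the anterior neural plate, gave 15.8 in en-pou5f3 against 916 in wild-type embryos (at least 28.2-fold lower), and the eye field gene rx3 gave 893 in en-pou5f3 against 2954 in wild-type embryos (3.31-fold lower). Of 14 genes of the midbrain-hindbrain boundary organizer, which patterns the neighbouring midbrain and cerebellum, 5 were lower and 2 higher. The lower ones were sp5l, pax2a, fgf8a, her5 and en2a, the last with 22.8 in en-pou5f3 against 103 in wild-type embryos (at least 3.17-fold lower). The higher ones were pax8 and gbx2, a hindbrain gene that sets the position of the boundary, with 1220.5 in en-pou5f3 against 205 in wild-type embryos (5.96-fold higher). Bright genes of the region that stayed level included gbx1, at 674 in en-pou5f3 against 696 in wild-type embryos, and sp5a, at 910.4 in en-pou5f3 against 888 in wild-type embryos. Of 24 hindbrain genes 4 were lower and 1 higher. The homeobox cofactor meis2b had 562 in en-pou5f3 against 1119 in wild-type embryos (log2 ratio -0.99), and meis1b was level at 1198 in en-pou5f3 against 1084 in wild-type embryos. Of 19 genes of early neurons 5 were lower and 1 higher. The proneural gene neurog1 gave 80.3 in en-pou5f3 against 868 in wild-type embryos (10.8-fold lower), and ascl1a gave 26.3 in en-pou5f3 against 93.8 in wild-type embryos (at least 2.89-fold lower). In the other direction, neurod4 gave 117 in en-pou5f3 against 53.6 in wild-type embryos (2.17-fold higher).

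Cell movement and adhesion genes followed in smaller numbers. Of 35 regulators of gastrulation movements 6 were lower and 0 higher (median log2 ratio -0.18). Of 21 cadherins and protocadherins 4 were lower, all of them protocadherins. Besides pcdh8, pcdh18a gave 34.6 in en-pou5f3 against 276 in wild-type embryos (7.99-fold lower). The pcdh10b gene gave 76.6 in en-pou5f3 against 192 in wild-type embryos (2.5-fold lower), and pcdh1b gave 30.8 in en-pou5f3 against 90.5 in wild-type embryos (at least 2.79-fold lower). The classical cadherin cdh1, which holds the epiblast together, had 2004 in en-pou5f3 against 2292 in wild-type embryos (log2 ratio -0.19). The fibronectin gene fn1b gave 319 in en-pou5f3 against 683 in wild-type embryos (2.14-fold lower), and its copy fn1a gave 1396 in en-pou5f3 against 1713 in wild-type embryos. The peptide hormone apela, which guides mesendoderm through the Apelin receptor, gave 993 in en-pou5f3 against 2011 in wild-type embryos (2.03-fold lower). None of 30 claudin and tight junction genes and none of 10 integrin and focal adhesion genes passed 2-fold. Beside the 2.25% of all genes that were lower and the 1.1% that were higher, counts of 0 among so few genes say little. Among matrix genes ccn1, a secreted protein and a target of the Hippo pathway, gave 160.3 in en-pou5f3 against 58.4 in wild-type embryos (2.75-fold higher) at 90% epiboly and had a log2 ratio of 1.54 at 3-ss.

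The few protease and lysosome genes that passed 2-fold were all higher. Of 48 protease and inhibitor genes 4 were higher (8.33%) and 0 lower, beside 1.1% and 2.25% of all genes. These 4 were all near 2-fold, and their mean signals lay in the 2 dimmest of 5 bins. In those bins 1.64% (dimmest) and 2.37% of probe sets were higher. Of the metalloproteases mmp9 gave 102 in en-pou5f3 against 49 in wild-type embryos (2.09-fold higher) and mmp11b gave 66.9 in en-pou5f3 against 33.3 in wild-type embryos (2.01-fold higher). The protease furinb gave 68.7 in en-pou5f3 against 30.3 in wild-type embryos (at least 2.12-fold higher), and the inhibitor serpinb1l3 gave 205 in en-pou5f3 against 95.4 in wild-type embryos (2.15-fold higher). Of 59 lysosome and autophagy genes 2 were higher (3.39%) and 0 lower, counts too small to say much beside the shares of all genes. The autophagy receptor sqstm1 gave 742 in en-pou5f3 against 230.4 in wild-type embryos (3.22-fold higher). The progranulin gene grna.1 gave 108 in en-pou5f3 against 50.4 in wild-type embryos (2.14-fold higher). Of the 59 genes 43 had a positive log2 ratio, with a median of 0.13. Tubulin and kinesin genes had 4 of 47 higher (8.51%) and 0 lower. The mitotic kinesin kif20a gave 1270.5 in en-pou5f3 against 556 in wild-type embryos (2.29-fold higher), but its other probe set had 315 in en-pou5f3 against 419.6 in wild-type embryos (log2 ratio -0.41). The kif5aa gene gave 369 in en-pou5f3 against 172 in wild-type embryos (2.14-fold higher). The tubulin gene tubb4bl gave 347 in en-pou5f3 against 129 in wild-type embryos (2.7-fold higher), and tubb2 gave 70.4 in en-pou5f3 against 25.1 in wild-type embryos (at least 2.17-fold higher). Solute carriers had 3 of 99 lower (3.03%) and 1 higher (1.01%), near the 2.25% and 1.1% of all genes. The urea transporter slc14a2 gave 31.5 in en-pou5f3 against 136 in wild-type embryos (at least 4.18-fold lower), and slc25a55a gave 395 in en-pou5f3 against 1102 in wild-type embryos (2.79-fold lower). The water channel aqp3a gave 373 in en-pou5f3 against 919 in wild-type embryos (2.46-fold lower). Of 102 small GTPases and their regulators 3 were lower (2.94%), also near the share of all genes. The rem1 gene gave 26.4 in en-pou5f3 against 191 in wild-type embryos (at least 5.88-fold lower), rasl11b gave 227 in en-pou5f3 against 759.7 in wild-type embryos (3.34-fold lower) and arhgap29a gave 42.7 in en-pou5f3 against 129 in wild-type embryos (3.02-fold lower).

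**Figure D4:**
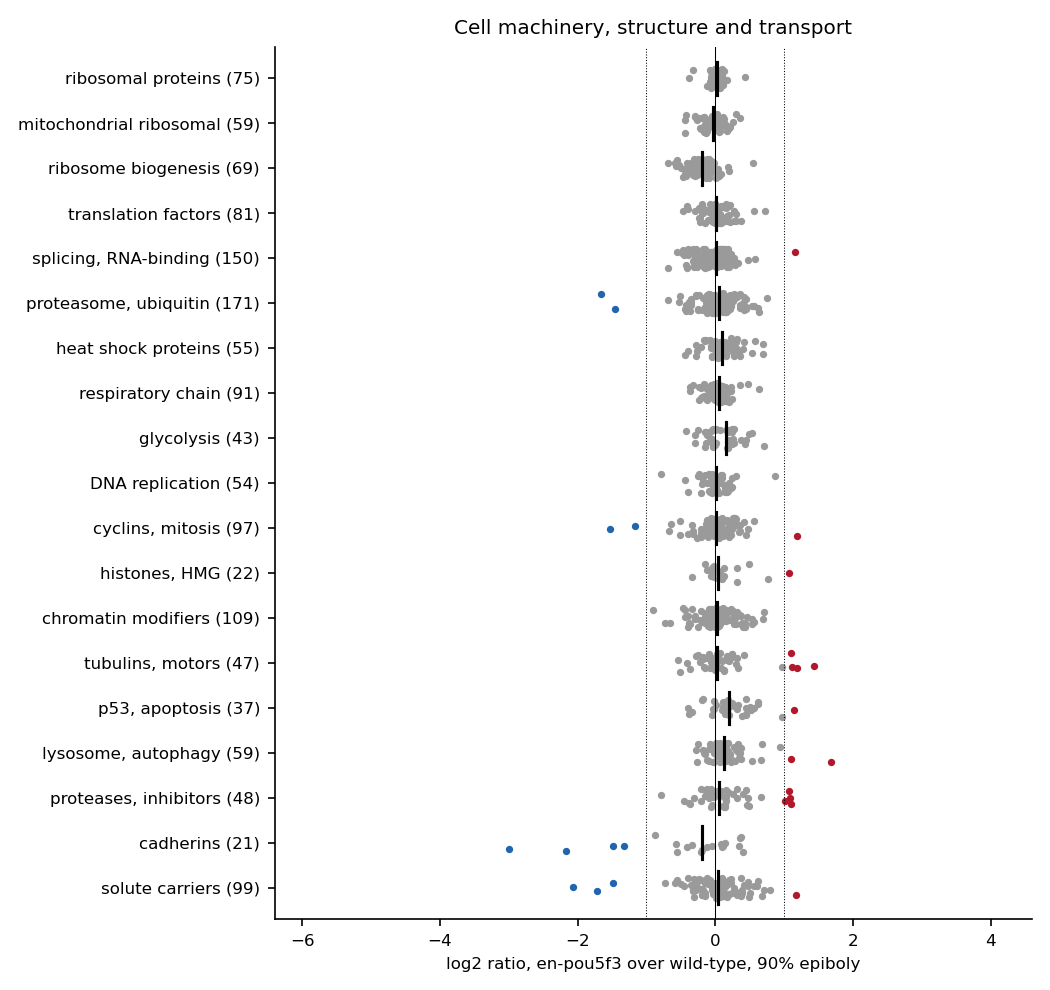
Log2 ratio of the en-pou5f3 over the wild-type signal at 90% epiboly (horizontal axis) for each measured gene of the cellular machinery, stress, adhesion and transport lists (rows, with the number of measured genes in brackets). Each dot is 1 gene, coloured where it passed 2-fold, and the black bar is the median of the row. Ribosomal protein and respiratory chain genes form narrow clouds around 0, and ribosome biogenesis genes form a narrow cloud slightly to the left of 0.

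Log2 ratios spread little in the machinery lists. Over all measured probe sets the SD of the log2 ratios was 0.37 in the brightest of 5 equal bins of mean signal. It was 0.52 in the second dimmest bin and 0.47 in the dimmest. The interquartile range was 0.21 in the brightest bin and 0.59 in the dimmest. Bright lists such as the ribosomal proteins therefore do not show how closely dim probe sets matched. None of 75 cytosolic ribosomal protein genes passed 2-fold, and none passed 1.5-fold, with a median of 0.03. The same count of 0 held for 59 mitochondrial ribosomal protein genes, with a median of -0.04, and for 32 chaperonin and folding genes, with a median of 0.02. Respiratory chain genes had a median of 0.05 over 91 genes and glycolysis genes of 0.16 over 43, with none past 2-fold. Ribosome biogenesis and nucleolar genes leaned downward by little, with negative log2 ratios in 60 of 69, a median of -0.20 and none past 2-fold. The lowest was ddx52, an RNA helicase of the small subunit, at 455 in en-pou5f3 against 736 in wild-type embryos (log2 ratio -0.69). At 3-ss their median was -0.17. None of 54 DNA replication genes passed 2-fold. Of 97 cyclin, mitosis and checkpoint genes 2 were lower (2.06%), near the 2.25% of all genes. Among the lower ones the G1 cyclin ccnd1 was bright, at 3079 in en-pou5f3 against 6929.8 in wild-type embryos (2.25-fold lower). Among 109 chromatin remodellers and histone modifiers none passed 2-fold. The counts of 0 in these lists stand beside 2.25% lower and 1.1% higher among all genes.

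Stress genes were followed because all embryos were heat-shocked. None of 55 heat shock proteins and co-chaperones passed 2-fold, beside 2.25% lower and 1.1% higher among all genes. Their median was 0.10, and their summed signals were 303000 in en-pou5f3 and 282000 in wild-type embryos. The small heat shock gene hspb1 gave 28713 in en-pou5f3 against 26807 in wild-type embryos. The inducible chaperone hsp90aa1.1 had 15291 in en-pou5f3 against 10549 in wild-type embryos (log2 ratio 0.54). Of 37 genes of the p53 response and apoptosis 1 was higher, the mitochondrial death factor bnip3 with 78.1 in en-pou5f3 against 35.5 in wild-type embryos (2.2-fold higher), and 28 had positive log2 ratios, with a median of 0.20. The p53 target pmaip1 had 141 in en-pou5f3 against 72 in wild-type embryos (log2 ratio 0.97), and ccng1 had 19978 in en-pou5f3 against 18713 in wild-type embryos (log2 ratio 0.09). Of 36 genes of the unfolded protein and oxidative stress responses 2 were lower and 1 higher, and the growth arrest gene gadd45ga gave 247 in en-pou5f3 against 589 in wild-type embryos (2.38-fold lower). Their part in the other results was not tested.

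Further members of the lists also passed 2-fold. The LIM homeobox gene lhx5, a forebrain regulator, gave 66.7 in en-pou5f3 against 353 in wild-type embryos (5.3-fold lower). The forebrain zinc finger gene fezf2 gave 187 in en-pou5f3 against 429 in wild-type embryos (2.29-fold lower), and olig2, a bHLH gene of motor neuron and oligodendrocyte precursors, gave 148 in en-pou5f3 against 448 in wild-type embryos (3.03-fold lower). Of 23 Notch pathway genes 1 was lower (4.35%) and 0 higher, beside 2.25% and 1.1% of all genes. Their median was 0.12, with 14 positive and 9 negative log2 ratios. The lower one was the feedback gene nrarpb at 54 in en-pou5f3 against 149 in wild-type embryos (2.76-fold lower). A second, dim probe set of nrarpb had 39.2 in en-pou5f3 against 59.5 in wild-type embryos (log2 ratio -0.60). Of 5 POU genes 1 was lower, pou2f1b at 183 in en-pou5f3 against 395 in wild-type embryos (2.16-fold lower). The signal of sox21b in en-pou5f3 embryos lay under the floor, at 27.7 against 80 in wild-type embryos (at least 2.47-fold lower). Regulators of G protein signalling were lower in 2 cases, rgs5a at 39.9 in en-pou5f3 against 91.2 in wild-type embryos (2.29-fold lower) and rgs2 at 41.6 in en-pou5f3 against 89.8 in wild-type embryos (2.16-fold lower). A second probe set of rgs2 had 55.3 in en-pou5f3 against 104 in wild-type embryos (log2 ratio -0.91). The ubiquitin ligase genes rnf19a and rnf183 gave 352 in en-pou5f3 against 1108 in wild-type embryos (3.15-fold lower) for rnf19a and 408 in en-pou5f3 against 1119 in wild-type embryos (2.75-fold lower) for rnf183. Lower too were the glucose transporter gene slc2a8 at 38.2 in en-pou5f3 against 125 in wild-type embryos (3.28-fold lower) and ptprn2 at 34.5 in en-pou5f3 against 83.2 in wild-type embryos (2.41-fold lower). Under the floor in en-pou5f3 embryos were the actin gene acta1a, at 29.3 against 75.1 in wild-type embryos (at least 2.31-fold lower), the kinase gene cdk5, at 27.9 against 93.2 in wild-type embryos (at least 2.87-fold lower), and acot18, at 26 against 76.9 in wild-type embryos (at least 2.37-fold lower). Another probe set of acot18 was within 2-fold, at 40.3 in en-pou5f3 against 53.2 in wild-type embryos (log2 ratio -0.40). In the other direction, the RNA-binding protein gene rbm47 gave 1834 in en-pou5f3 against 824 in wild-type embryos (2.23-fold higher), and the fatty acid binding protein gene fabp3 gave 656 in en-pou5f3 against 301 in wild-type embryos (2.18-fold higher). The linker histone gene h1-10 gave 341 in en-pou5f3 against 162 in wild-type embryos (2.1-fold higher), the phosphatase gene dusp7 gave 178 in en-pou5f3 against 85.4 in wild-type embryos (2.09-fold higher) and the solute carrier slc22a31 gave 569.6 in en-pou5f3 against 254 in wild-type embryos (2.24-fold higher). Another, dim probe set of dusp7 was near level, at 59.2 in en-pou5f3 against 52.6 in wild-type embryos (log2 ratio 0.17).

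Several genes outside the lists passed 2-fold and were chosen after their values were seen. The apoptosis regulator bcl2l10 gave 522 in en-pou5f3 against 2616 in wild-type embryos (5.01-fold lower). Of the inka1 copies, which inhibit PAK kinase, inka1a gave 60.7 in en-pou5f3 against 256 in wild-type embryos (4.21-fold lower) and inka1b gave 194 in en-pou5f3 against 926 in wild-type embryos (4.77-fold lower). The lipid transfer gene gramd1c gave 84.5 in en-pou5f3 against 526 in wild-type embryos (6.22-fold lower), the serotonin synthesis gene tph1b gave 37.2 in en-pou5f3 against 189 in wild-type embryos (5.09-fold lower), and the neural homeobox gene pnx gave 28.5 in en-pou5f3 against 303 in wild-type embryos (at least 9.33-fold lower). The BMP co-receptor and Neogenin ligand rgma gave 520.4 in en-pou5f3 against 1802 in wild-type embryos (3.46-fold lower), and the glutathione transferase gstp1.2 gave 890.0 in en-pou5f3 against 2920.2 in wild-type embryos (3.28-fold lower). Among the higher ones, the phosphatase acp5a gave 3316 in en-pou5f3 against 1304 in wild-type embryos (2.54-fold higher) and the carbonic anhydrase ca2 gave 1404 in en-pou5f3 against 547 in wild-type embryos (2.57-fold higher). The vitamin E transfer gene ttpa gave 113 in en-pou5f3 against 40.6 in wild-type embryos (2.78-fold higher). Less well described genes were among the largest changes. Here si:ch211-152c8.5 gave 44.4 in en-pou5f3 against 306 in wild-type embryos (6.9-fold lower), and tlcd3ba was at least 2.91-fold lower, its en-pou5f3 signal being under the floor. Upward, wu:fb55g09 gave 1897 in en-pou5f3 against 539.8 in wild-type embryos (3.51-fold higher), and si:dkey-7c18.24 gave 258 in en-pou5f3 against 69.7 in wild-type embryos (3.7-fold higher). Other probe sets of si:dkey-7c18.24 were not called, with log2 ratios of 0.83 and, with the wild-type signal under the floor, at least 0.99. Of the probe sets of si:ch211-132d3.4, one gave 174 in en-pou5f3 against 51.7 in wild-type embryos (3.37-fold higher), and another was at least 4.79-fold higher. The remaining one was close to the floor, at 33.6 in en-pou5f3 against 24.7, under the floor, in wild-type embryos. Probe sets of smim14, cdc42ep3, ppap2d, pde6hb, hacl1, tnfaip6, galm and usf2 had wild-type signals under the floor. The smallest bound was at least 2.09-fold higher, for usf2 with 67.8 in en-pou5f3 embryos, and the largest was at least 3.29-fold higher, for smim14 with 107 in en-pou5f3 embryos. Other probe sets of usf2 and tnfaip6 were within 2-fold, at 2154 in en-pou5f3 against 2074 in wild-type embryos for usf2 and 145 in en-pou5f3 against 83.3 in wild-type embryos for tnfaip6, and so was another probe set of hacl1, at 64 in en-pou5f3 against 67.2 in wild-type embryos. The selenium carrier selenop2 gave 1190.5 in en-pou5f3 against 432 in wild-type embryos (2.75-fold higher). The heparin-binding growth factor mdka gave 525 in en-pou5f3 against 233 in wild-type embryos (2.25-fold higher), and the lipase inhibitor angptl4 gave 879.5 in en-pou5f3 against 360.2 in wild-type embryos (2.44-fold higher). Of the lower probe sets 28 had no gene name, and of the higher ones 41 had none, so the higher group was less well identified. A probe set named cki in the study tables gave 11549 in en-pou5f3 against 2242 in wild-type embryos (5.15-fold higher).

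Zebrafish keep many genes as a and b copies from the genome duplication of teleost fish. Pairs were formed here from symbols that differ only in a final a or b. This rule also joins genes that are not such copies, among them sdha with sdhb and tfap2a with tfap2b. The values below therefore do not describe duplicated copies alone. Over 496 pairs with both members measured, the log2 ratios of the members were weakly related (Pearson 0.26, Spearman 0.11). The pairs are not independent replicates and share both arrays. In 28 pairs at least 1 member was lower, and in 7 of them both were, namely bmp2, foxb1, hoxc6, inka1, irx1, sox11 and zic2. In the other 21 pairs the second member had a median log2 ratio of 0.03, and 5 of them were beyond 1.5-fold in the same direction. In 12 pairs 1 member was higher and in none both, and the second member had a median of -0.17. No pair had members called in opposite directions. The otx2 genes above are an example of a pair with 1 copy near level, and shha is one of the 5 that leaned in the same direction as the lower copy. Position along the chromosome was examined in the same way, using the gene order of the RefSeq assembly GRCz12tu for 7193 genes and no coordinates. Of 2527 neighbouring pairs with both genes measured, 121 held at least 1 lower gene and 2 held a pair of them, hoxc8a with hoxc6a and zic5 with zic2a. None of the 56 neighbouring pairs with a higher gene had both higher. Beside the 2.25% of all genes that were lower and the 1.1% that were higher, these counts are too small to say anything of neighbours.

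**Figure D5:**
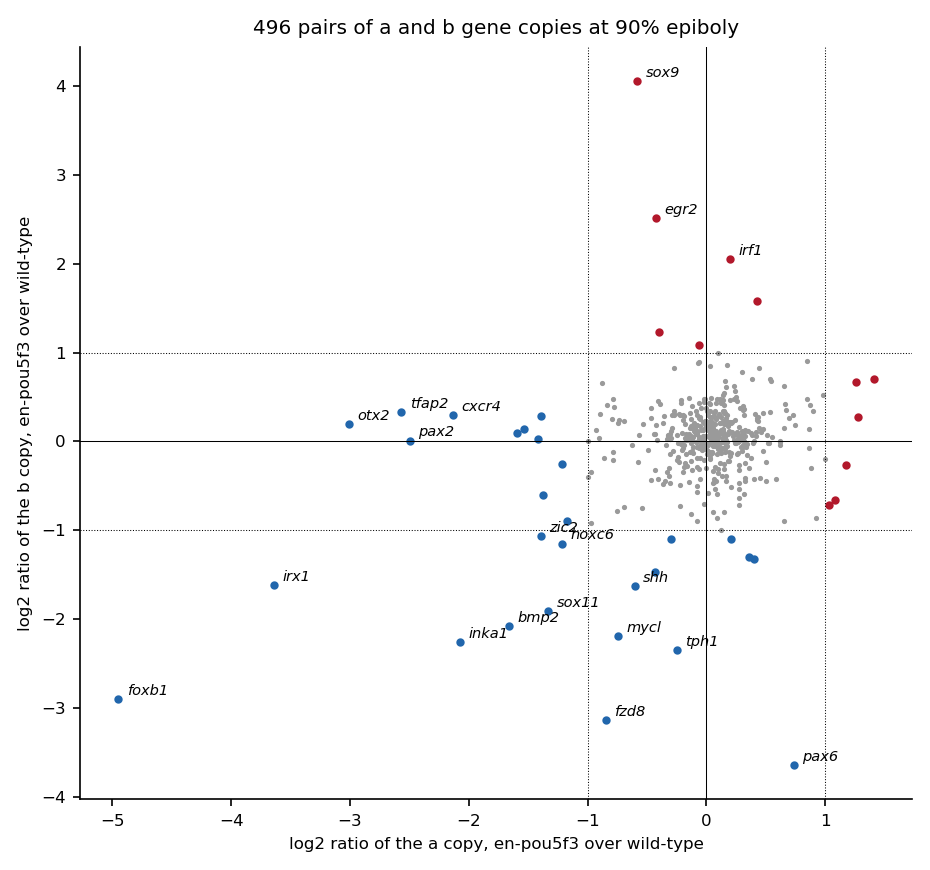
Log2 ratio of the en-pou5f3 over the wild-type signal at 90% epiboly in 496 pairs of genes whose symbols differ only in a final a or b. The member ending in b (vertical axis) is set against that ending in a (horizontal axis), 1 point per pair. Pairs with both members at least 2-fold lower (7) lie in the lower left, and most pairs with 1 changed member lie along an axis.

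Agreement between probe sets of 1 gene gave a check inside each array. Over 1006 genes with several probe sets over the floor in both genotypes, the log2 ratios of the same gene had a pooled SD of 0.274. Of 43 genes with several measured probe sets of which at least 1 was lower, 11 had all of them lower and 8 had one of the opposite sign. Of 23 with at least 1 higher, 2 had all higher and 4 had one of the opposite sign. The 2-fold threshold of 1 on the log2 scale is several times this SD. The SD is pooled over all such genes, called or not, and probe sets of called genes often differed, as the counts above show. It therefore gives no margin for single calls, least of all for dim probe sets, and it holds no variation between pools of embryos.

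The 3-ss values separate the genes into those that were low at both stages and those that were not. Besides her3, genes with large decreases at both stages were sp5l, with a log2 ratio of -3.87 at 90% epiboly and -3.21 at 3-ss, six7 with -3.13 and -3.39, and foxb1a with -4.95 and -3.18. The transcription factors tfap2a, at -2.57 and -2.12, and sox3, at -1.55 and -1.65, belong here too. Genes measured over the floor at both stages and lower at 90% epiboly alone included twist1a at -1.43 and 0.46, bmp2b at -2.08 and -0.35, and klf2a at -1.39 and -0.27. Of the genes that rose, elf3 at 2.16 and 2.45, irf1b at 2.05 and 1.23, cxcl14 at 1.65 and 1.33 and ccn1 were higher at both stages, while sox9b and tbx2b were within 2-fold at 3-ss. Whether the stages differ could not be tested with 1 array per condition.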

How the data were processed

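RNA pooled by genotype from heat-shocked whole embryos was hybridised to zebrafish expression arrays, 1 array per condition. The authors scanned the arrays and made 1 intensity signal per probe set with MAS5, scaled to a common mean, and deposited these intensity values on a linear scale. The MAS5 version is not given in the sources used here. The deposited change calls and log ratios of the study were not used.

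Further steps were run in Python (3.11.15) using pandas 2.3.3 and numpy 2.4.6, and matplotlib 3.10.9 drew the figures. Of 15617 probe sets 115 manufacturer controls were left out. A floor of 32.4 replaced lower signals. It is the 95th percentile over 20 control probe sets that have no zebrafish target (80 values, median 6.45). The en-pou5f3 signal was divided by the wild-type signal on the log2 scale, with calls at 2-fold. The floor limits what dim probe sets can show, and 1 array per group limits the precision of every value.

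The platform annotation gave 1 symbol for 10795 probe sets and several for 135, 176 were named from supplementary tables of the study alone and 4396 had no name. Of those with 1 symbol, 10711 were matched to a current symbol by gene ID, and 1 of them was renamed.

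No statistical test was run and no p-value is given. Genes named are the 25 largest ratios in each direction measured in both genotypes, the 12 largest bounds in each direction, pou5f3, members of lists past 2-fold and, in part, the 4 largest by size and the brightest of each list. Some items are not reported here. The members, lists and rules were chosen with earlier results of these data known, some lists were tightened and the classes were formed after values had been seen, and genes outside the rule are said to be so. Alternatives were thresholds of 1.5-fold and 3-fold, no floor, a lower floor, adding the floor to each signal, quantile normalization, centring on the median, leaving out shared probes or those not measured in both genotypes, and averaging the probe sets of each gene.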

Additional observations from a re-analysis of the deposited data

Results flagged for a closer look

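Probe sets of a pair of genes passed 2-fold in opposite directions at the 2 stages. The dimmest probe set of the secretory coat gene copg2 had a log2 ratio of -1.36 at 90% epiboly. Its signals were 21.3 in en-pou5f3 embryos, under the floor, and 83.2 in wild-type embryos. At 3-ss its log2 ratio was 1.49, with 96.9 in en-pou5f3 and 34.5 in wild-type embryos. The other probe sets of copg2 were level at 90% epiboly, at 1369 in en-pou5f3 and 1148 in wild-type embryos and at 389 in en-pou5f3 and 454 in wild-type embryos. At 3-ss their log2 ratios were 0.08 and -0.21. The brighter of them represents copg2 in the counts by gene, where copg2 was not called. The complement gene c6.2 had a log2 ratio of -1.23 at 90% epiboly, with 78.4 in en-pou5f3 and 184 in wild-type embryos, and of 1.42 at 3-ss, with 302 in en-pou5f3 and 113 in wild-type embryos. The difference between the stages was not tested, since each condition has 1 array.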

How the results depend on the processing

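The count of lower probe sets, 261, was 1346 with no floor, 1015 with a floor at the median control signal, 792 at 1.5-fold and 99 at 3-fold. The count of higher ones, 151, was 1207 with no floor, 889 with the lower floor, 91 with the floor added to both signals, 683 at 1.5-fold and 27 at 3-fold. Centring, quantile normalization, leaving out shared probes and leaving out those not measured in both genotypes kept both counts within 1.5 times. Of 82 list medians, 4 moved by more than the SD between probe sets of a gene. The iroquois median of -1.61 was -1.25 with no floor and with the lower floor, and -0.94 without shared probes. That of the Otx and Goosecoid type was -0.10 with no floor and -0.12 with the lower floor, that of AP-2, grainyhead and p63 genes was -0.15 without shared probes, and that of ETS genes was 0.50 with no floor. No gene counted as lower or higher changed the sign of its log2 ratio under these alternatives. Changes of sign were not examined for the list medians, of which several lay close to 0. Of 249 gene values, 110 moved with the floor added, 23 with no floor and 23 with the lower floor, and 24 of 46 moved with the mean of all probe sets. No paired analysis was possible because each group has 1 array. Leaving out an array was not possible either, for the same reason.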
